A study of Mus musculus with 10 samples.

Results

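The genes described here are the components of the Wnt pathway that the array measured in mouse blood progenitors carrying a switchable or a constitutive HOXB4. The members are 44 listed genes, from secreted ligands to nuclear corepressors, and 43 of them had at least 1 probe set carrying their symbol alone in the platform annotation, out of 18193 genes with a single symbol. Tcf7 had no such probe set and is not analysed here. The 43 genes had 110 probe sets, 10 genes with 1 and 33 with several, and each gene is given by its probe set of highest mean over the 10 arrays, with the others checked for direction.

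Bulk messenger RNA was measured in LSK cells, the fraction without lineage markers and with Sca1 and c-kit that contains blood stem and progenitor cells, after retroviral transfer of HOXB4-ER or HOXB4const and sorting for GFP. HOXB4, a homeobox factor, drives stem cells to expand in culture, and HOXB4-ER is its fusion to a hormone receptor domain that enters the nucleus when 4-hydroxytamoxifen (TMX) is bound. HOXB4const is the unmodified factor and was used to find effects of TMX itself. All cultures had grown with 10 nM TMX for 14 days before the sort and for 12 h after it, so the cells called "with TMX" were never without it. The groups, 2 arrays each, were HOXB4-ER cells after 1 h without TMX, HOXB4-ER cells after 4 h without TMX, HOXB4-ER cells after 1 h with TMX, HOXB4const cells after 1 h without TMX and HOXB4const cells after 1 h with TMX. A 4 h culture with TMX is not among the groups analysed, so time in culture and the loss of TMX cannot be told apart at 4 h. The populations were transduced in bulk, the labels call the replicates biological and say no more of them, and in such RNA fewer cells of a type and less RNA per cell cannot be told apart.

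Wnt proteins are lipid-modified by the acyltransferase Porcn, carried to the cell surface by Wls, and bind a Frizzled receptor together with Lrp5 or Lrp6. Without a ligand, a destruction complex of Axin, Apc, Gsk3 and casein kinase marks beta-catenin for degradation through the ubiquitin ligase subunit Btrc, while Tle (Groucho) corepressors keep TCF and LEF factors silent. With a ligand, Dishevelled inhibits that complex, and beta-catenin (Ctnnb1) accumulates and joins the TCF and LEF factors with Bcl9 and Pygo2 to switch on target genes such as Axin2. The pathway is known for its part in stem cell self-renewal in several tissues, blood included, and most of its control acts on protein, which an array of messenger RNA does not measure.

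Values are deposited log2 signals, and the array medians lay between 3.96 and 5.32. A probe set is called bright here where its mean over the arrays is at or above the median of all 45037 probe sets (4.05), and dim where it is below. HOXB4const replicate 1 without TMX stood apart, with the highest median and 0.0155% of its values below 0. The HOXB4const differences, their comparison with HOXB4-ER and the counts over both constructs are also given without it. HOXB4-ER arrays had 2.55% and 3.12% of values below 0 without TMX at 1 h, 5.01% and 8.17% at 4 h and 3.91% and 6.79% with TMX. The other HOXB4const arrays had 1.39% without TMX and 3.65% and 0.377% with TMX. The part of these low tails in the differences of dim genes was not tested. Of 8 LSK markers, 6 were measured and all 6 were bright, among them Kit and Cd34, while Ly6a, the Sca1 gene, is not analysed here. Monocyte and macrophage markers, 8 of 8 measured and all bright, averaged 6.73 to 7.59 on the 5 replicate 2 arrays against 9.34 to 10.1 on the 5 replicate 1 arrays, without overlap. Across groups the same mean lay between 8.25 and 8.57. Neutrophil markers, 7 of 7 measured and 5 bright, had group means of 6.61, 6.74 and 6.81 in HOXB4-ER cells (1 h and 4 h without TMX, and with TMX), against 4.75 and 5.05 in HOXB4const cells without and with TMX. On HOXB4-ER replicate 1 arrays they averaged 8.38 to 9.02, and on HOXB4-ER replicate 2 arrays 4.59 to 4.85. HOXB4const replicates 1 and 2 averaged 5.51 and 3.98 without TMX and 4.96 and 5.15 with TMX. Mast cell markers, 4 of 4 bright, had group means of 9.27 to 9.36 in HOXB4-ER cells against 9.68 to 9.79 in HOXB4const cells. Of these, Ms4a2 and Cpa3 were lower in HOXB4-ER cells, and Mcpt8 was higher within each replicate number. Fcer1a was lower in HOXB4-ER cells on replicate 1 arrays and higher on replicate 2 arrays. Group means of the lymphocyte (6 measured), erythroid (3) and stromal markers (7) lay between 2.56 and 4.66.

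The promoters of 3 members are shown because the text returns to these genes: Wnt3 is the ligand described at 1 h in both constructs, Axin2 is the usual readout of the pathway, and Tle1 had the smallest p of the members after 4 h. The sequences are from RefSeq (GRCm38.p6), 300 bases around the transcription start, 5′ to 3′ along the gene. They lie at chr11:103773925-103774224 on the plus strand for Wnt3, chr11:108920099-108920398 on the plus strand for Axin2 and chr4:72200844-72201143 on the minus strand for Tle1. Capitals mark a TCF/LEF core (CTTTGTT) at bases 269 to 275 of the Wnt3 window and, at bases 79 to 86 of the Axin2 window, ATCAATCA, the reverse strand of the HOX and PBX composite TGATTNAT.
Wnt3: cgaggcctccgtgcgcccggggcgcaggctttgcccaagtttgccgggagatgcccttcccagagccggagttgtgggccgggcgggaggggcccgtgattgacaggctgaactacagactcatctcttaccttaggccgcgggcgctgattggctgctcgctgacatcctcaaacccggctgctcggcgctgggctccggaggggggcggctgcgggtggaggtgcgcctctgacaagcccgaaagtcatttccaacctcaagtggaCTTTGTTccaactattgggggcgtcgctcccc
Axin2: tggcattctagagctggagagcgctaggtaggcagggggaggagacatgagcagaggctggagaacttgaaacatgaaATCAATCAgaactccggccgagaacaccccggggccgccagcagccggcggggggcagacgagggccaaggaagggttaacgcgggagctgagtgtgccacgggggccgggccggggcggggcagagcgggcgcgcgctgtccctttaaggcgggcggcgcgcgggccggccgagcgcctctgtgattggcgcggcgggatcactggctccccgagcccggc
Tle1: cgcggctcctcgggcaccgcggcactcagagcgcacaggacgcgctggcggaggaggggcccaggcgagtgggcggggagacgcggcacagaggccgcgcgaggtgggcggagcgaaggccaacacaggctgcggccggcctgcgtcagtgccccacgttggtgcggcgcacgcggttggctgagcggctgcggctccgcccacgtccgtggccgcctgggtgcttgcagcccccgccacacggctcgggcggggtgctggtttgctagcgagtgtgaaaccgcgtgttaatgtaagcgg
Searched on both strands, CTTTGTT stood in 5.85% of 32851 promoters and in 4 of the 43 windows that 30 members have (Dkk1, Fzd7, Tcf7l2 and Wnt3). The other TCF/LEF core, CTTTGAT, stood in 3.73% of all promoters and in 1 member window (Wnt5b). TGATTNAT, a motif added after the values were seen, stood in 3.22% of all promoters and in 2 member windows (Axin2 and Pygo2). The Tle1 window held none of these 3 letter strings. CTTTGAT and TGATTNAT share the letters TGAT and can overlap. A match describes the sequence only.

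By their brightest probe sets, beta-catenin, the corepressors and most of the destruction complex were bright with little spread, and the ligands were dim and scattered. Axin2, Dvl3, Cxxc4, Lef1 and Tcf7l1, which also act inside the cell, were dim and scattered too. All 5 ligands were dim, as were 4 of 10 receptors, while 8 of 9 genes of the destruction complex and its kinases, beta-catenin and all 4 corepressors lay above the upper quartile of all probe sets (6.39). In all, 28 of the 43 genes were bright and 15 dim, 17 were above the upper quartile and 5 below the lower quartile (2.66). A signal depends on its probes, so these positions place a probe set against the noise of the array and do not rank the genes by RNA amount. The pooled SD between replicates had a median of 0.345 over the 28 bright genes, with a range of 0.096 to 0.989. For the 15 dim genes the median was 1.30, with a range of 0.611 to 2.03. The plot of all 43 genes by role shows the wide spread of the dim ones.

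**Figure D1:**
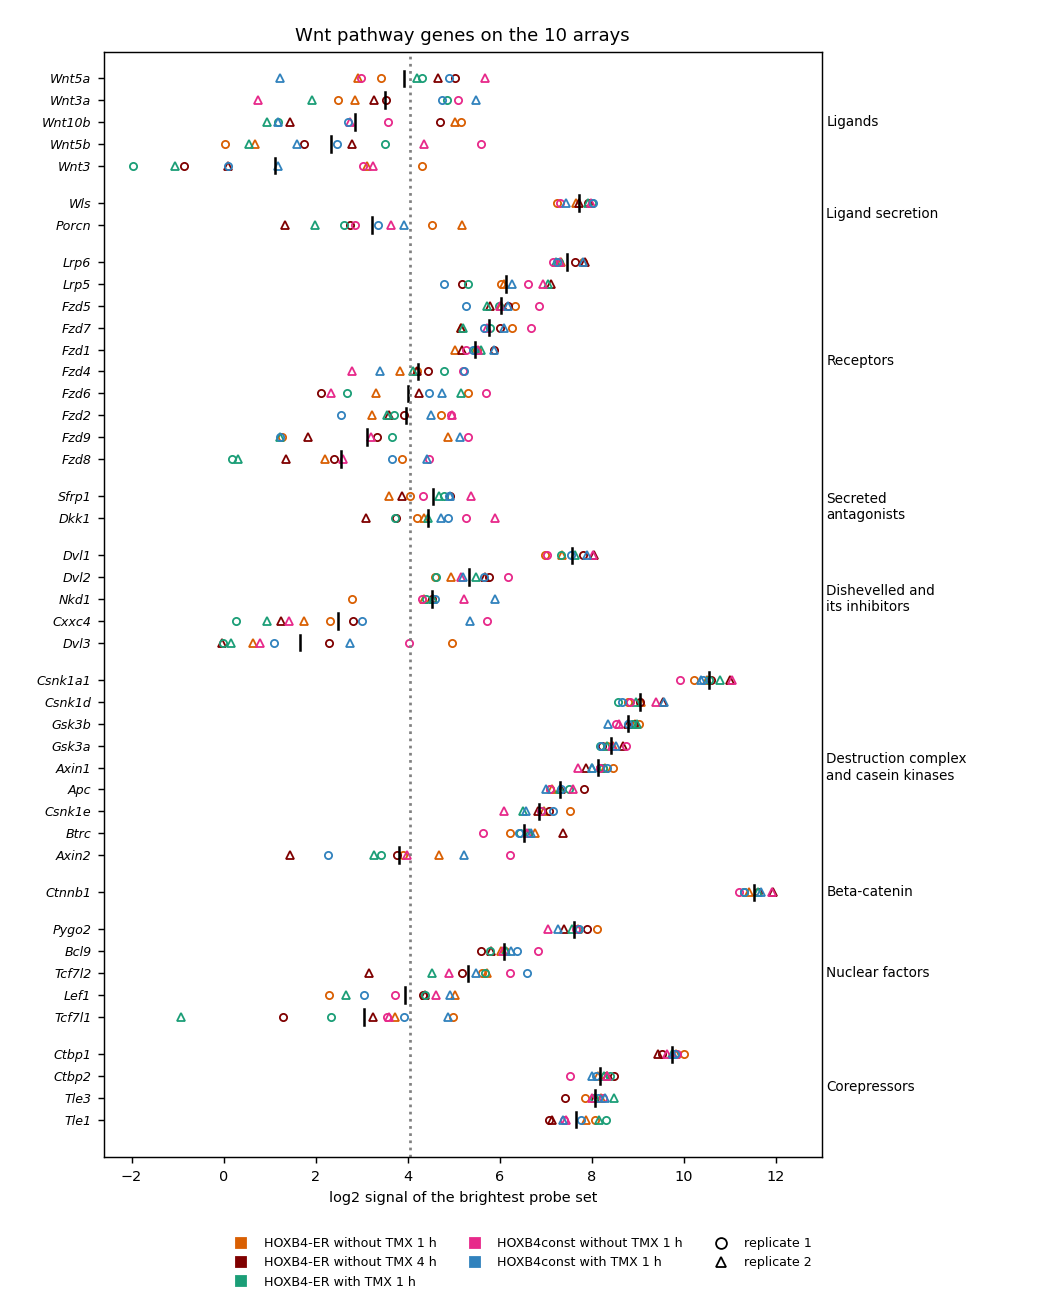
Each row is a Wnt pathway gene, grouped by role, with the log2 signal of its brightest probe set on each of the 10 arrays (x axis); colours are groups, circles and triangles are replicates 1 and 2, the black bar is the mean over the arrays and the dotted line is the median of all probe sets (4.05). The ligands lie left of the line and scatter widely, while beta-catenin (mean 11.53), 8 of 9 destruction complex genes and the corepressors lie at the right with points close together.

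Wnt5a, a ligand known mostly for signalling without beta-catenin, had log2 signals of 3.41 and 2.92 in HOXB4-ER cells without TMX at 1 h, 5.04 and 4.65 without TMX at 4 h and 4.31 and 4.20 with TMX. In HOXB4const cells it had 2.98 and 5.68 without TMX and 4.89 and 1.23 with TMX. The replicates of each HOXB4const group thus lay farther apart than any 2 HOXB4-ER arrays. Wnt3a, a ligand that acts through beta-catenin, ranged over the 10 arrays between log2 signals of 0.75 and 5.48.

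Wls, the carrier that brings ligands to the surface, had 7.25 and 7.67 in HOXB4-ER cells without TMX at 1 h, 7.92 and 7.72 without TMX at 4 h and 7.998 and 7.92 with TMX. HOXB4const cells had Wls signals of 7.31 and 7.98 without TMX and 8.03 and 7.45 with TMX. Wls was thus bright on every array, with its 1 h HOXB4-ER arrays without TMX below those with TMX (log2 difference -0.50 ± 0.46, SE; limma adjusted p = 1.00). In its other probe sets these arrays overlapped. Among receptors, Lrp6, the coreceptor needed for beta-catenin signalling, had 7.81 and 7.34 in HOXB4-ER cells without TMX at 1 h, 7.63 and 7.86 without TMX at 4 h and 7.29 and 7.22 with TMX. Its HOXB4const signals were 7.17 and 7.32 without TMX and 7.25 and 7.82 with TMX. Over the 10 arrays it lay between 7.17 and 7.86. The HOXB4-ER arrays without TMX were above those with TMX at both times, by 0.32 ± 0.44 log2 units at 1 h and 0.49 ± 0.44 at 4 h (SE; limma adjusted p = 1.00 for both), and the HOXB4const groups overlapped. The other, dim Lrp6 probe set had 1.12 and 4.35 at 1 h and 2.60 and 1.39 at 4 h, against 3.37 and 3.36 with TMX. It overlapped at 1 h and was lower at 4 h, so these probe sets give Lrp6 no single direction. Fzd5, Fzd7 and Fzd1, Frizzled receptors for Wnt ligands, were bright with mean log2 signals of 6.04, 5.77 and 5.48, Lrp5 had 6.14 and Fzd4 had 4.22. Fzd6, Fzd2, Fzd9 and Fzd8 were dim, with means of 4.01, 3.97, 3.11 and 2.55.

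The secreted antagonists Sfrp1, which binds Wnt ligands, and Dkk1, which blocks Lrp5 and Lrp6, were just above the median probe set, with means of 4.55 and 4.44. Sfrp1 had 4.05 and 3.59 in HOXB4-ER cells without TMX at 1 h, 4.93 and 3.87 without TMX at 4 h and 4.80 and 4.68 with TMX, beside 4.34 and 5.38 in HOXB4const cells without TMX and 4.90 and 4.92 with TMX. The 1 h HOXB4-ER arrays without TMX lay below those with TMX (log2 difference -0.92 ± 0.56, SE; limma adjusted p = 1.00). Its other 4 probe sets, named after their values were seen, went the other way, by 3.18 ± 0.74, 2.15 ± 0.84 and 1.92 ± 0.63 without overlap and by 0.11 ± 1.43 with overlap (SE; limma adjusted p = 0.639, 0.968, 0.873 and 1.00), so these probe sets give Sfrp1 no single direction. Dvl1, a Dishevelled protein that relays the receptor signal, had 6.99 and 7.35 in HOXB4-ER cells without TMX at 1 h, 7.82 and 8.04 without TMX at 4 h and 7.34 and 7.63 with TMX. Its HOXB4const signals were 7.02 and 8.04 without TMX and 7.56 and 7.90 with TMX. Dvl2 was bright (mean 5.33), and Dvl3 was dim (1.67). Nkd1 and Cxxc4, which bind and inhibit Dishevelled, had means of 4.52 and 2.49.

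In the destruction complex, Csnk1a1, the kinase that primes beta-catenin for Gsk3, had 10.22 and 10.51 in HOXB4-ER cells without TMX at 1 h, 10.60 and 11.01 without TMX at 4 h and 10.56 and 10.78 with TMX. HOXB4const cells had 9.93 and 11.04 without TMX and 10.42 and 10.38 with TMX. The HOXB4-ER arrays without TMX at 1 h were below those with TMX, by -0.31 ± 0.50 log2 units (SE; limma adjusted p = 1.00), while the 4 h arrays and the HOXB4const groups overlapped. At 1 h its next brightest probe set overlapped (9.74 and 9.52 against 9.63 and 9.59). A dimmer one was higher without TMX (5.45 and 4.70 against 4.38 and 4.24), and the remaining ones overlapped. The means of its other members were 9.05 for Csnk1d, 8.79 for Gsk3b, 8.41 for Gsk3a, 8.13 for Axin1, 7.32 for Apc, 6.85 for Csnk1e and 6.54 for Btrc. Axin2, the second scaffold and a feedback target, was the dim exception at 3.82.

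Beta-catenin itself was brighter than 99.2% of all probe sets. Ctnnb1 had 11.30 and 11.43 in HOXB4-ER cells without TMX at 1 h, 11.63 and 11.95 without TMX at 4 h and 11.31 and 11.62 with TMX, and in HOXB4const cells 11.21 and 11.92 without TMX and 11.31 and 11.67 with TMX. In this probe set, the brightest of 3, the 4 h arrays without TMX were above both arrays with TMX, though only just (11.626 against 11.623). The second overlapped (9.55 and 8.37 at 4 h against 9.46 and 8.74 with TMX), and so did the dimmest (6.71 and 1.71 against 7.45 and 5.68).

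Of the nuclear factors, Pygo2, a beta-catenin cofactor, had 8.12 and 7.70 in HOXB4-ER cells without TMX at 1 h, 7.91 and 7.41 without TMX at 4 h and 7.70 and 7.57 with TMX. Pygo2 in HOXB4const cells had 7.66 and 7.06 without TMX and 7.72 and 7.27 with TMX. Replicate 2 was below replicate 1 in all 5 groups. Bcl9, which links beta-catenin to Pygo2, had a mean of 6.10 and Tcf7l2, a TCF factor, 5.31, while Lef1 (3.94) and Tcf7l1 (3.06), a TCF factor that acts mainly as a repressor, were dim. Ctbp1, a corepressor, had 10.00 and 9.83 in HOXB4-ER cells without TMX at 1 h, 9.53 and 9.45 without TMX at 4 h and 9.81 and 9.74 with TMX, and 9.86 and 9.63 in HOXB4const cells without TMX against 9.82 and 9.77 with TMX. The 4 h arrays were the lowest of the HOXB4-ER arrays (log2 difference from the arrays with TMX -0.29 ± 0.39, SE; limma adjusted p = 1.00). Ctbp2, Tle3 and Tle1 had means of 8.19, 8.07 and 7.66.

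One hour after TMX was removed from HOXB4-ER cells, 0 of the 43 genes passed at an adjusted p under 0.05 in limma, and 0% of all 45037 probe sets did. At an unadjusted p under 0.05, 5 genes were higher without TMX (11.6%), where 3.42% of all probe sets were. They were the ligands Wnt3 and Wnt10b, Porcn, the receptor Fzd8 and Tcf7l1, and 0 genes were lower, where 1.34% of all probe sets were. All 5 were dim: they make 33.3% of the 15 dim members, beside 6.11% of all dim probe sets at the same p and direction, and 0 dim members were lower (2.3% of dim probe sets). Among the 28 bright members 0 reached it in either direction, beside 0.733% of bright probe sets higher and 0.386% lower. Of the 43 genes, 25 had a difference above 0 (57.7% of all probe sets did). Both arrays without TMX were above both with TMX in 15 genes (21.1% of all probe sets) and below in 7 (11% of all probe sets). The median log2 difference was 0.15 over the 43 genes and 0.12 over all probe sets, and dim probe sets as a whole had a median of 0.43.

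Wnt3, a ligand that signals through beta-catenin, had log2 signals of 4.32 and 3.11 without TMX against -1.97 and -1.05 with TMX. Both arrays without TMX were above both with TMX, by 5.22 ± 0.68 log2 units (SE; limma adjusted p = 0.457). Most of these signals are under 4, and with signals under 4 set to 4 the difference was 0.16 ± 0.098. Outside the arrays without TMX at 1 h, Wnt3 did not exceed 1.19 on any array, and its HOXB4-ER signals with TMX lay below 0. Its only probe set, like the brightest ones of Wnt5b and Csnk1d, has the suffix that marks probes shared with other sequences. Wnt10b, a ligand known in blood and bone, had 5.15 and 5.03 without TMX against 1.19 and 0.94 with TMX. The arrays did not overlap (log2 difference 4.03 ± 1.04, SE; limma adjusted p = 0.729).

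Porcn had 4.53 and 5.19 without TMX against 2.61 and 1.99 with TMX. Its difference was 2.56 ± 0.64 log2 units (SE; limma adjusted p = 0.681), again without overlap. Fzd8 had 3.88 and 2.20 without TMX against 0.18 and 0.32 with TMX. The difference was 2.79 ± 0.84 (SE; limma adjusted p = 0.826) for this probe set and 1.57 ± 0.80 for the other Fzd8 probe set. Tcf7l1 had 4.996 and 3.72 without TMX against 2.33 and -0.93 with TMX. Its difference was 3.66 ± 1.15 (SE; limma adjusted p = 0.847), and its second probe set had 2.66 and 2.84 without TMX against 1.39 and 1.45 with TMX, a difference of 1.33 ± 0.50. With signals under 4 set to 4, Porcn and Wnt10b were the 2 genes left at an unadjusted p under 0.05. At that p, 2.01% of all probe sets were then higher. Leaving out any 1 array gave differences of 2.23 to 2.89 for Porcn and 3.91 to 4.15 for Wnt10b. For Wnt3 they were 4.62 to 5.83 and for Fzd8 1.95 to 3.63.

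Axin2 had 3.89 and 4.68 without TMX against 3.41 and 3.27 with TMX. The arrays without TMX were both above, and the difference of 0.94 ± 1.23 log2 units (SE; limma adjusted p = 1.00) was smaller than its error. Ctnnb1 differed by -0.10 ± 0.45 log2 units (SE; limma adjusted p = 1.00), with overlapping arrays. The brightest Cxxc4 probe set had 2.32 and 1.75 without TMX against 0.27 and 0.94 with TMX (log2 difference 1.42 ± 1.43, SE; limma adjusted p = 1.00), while the other Cxxc4 probe sets had differences of -2.80 ± 0.90 and 4.10 ± 0.55. The 3 probe sets of this Dishevelled inhibitor thus point in both directions. The plot of difference against signal level shows that the wide differences belong to dim probe sets in each comparison with TMX.

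**Figure D2:**
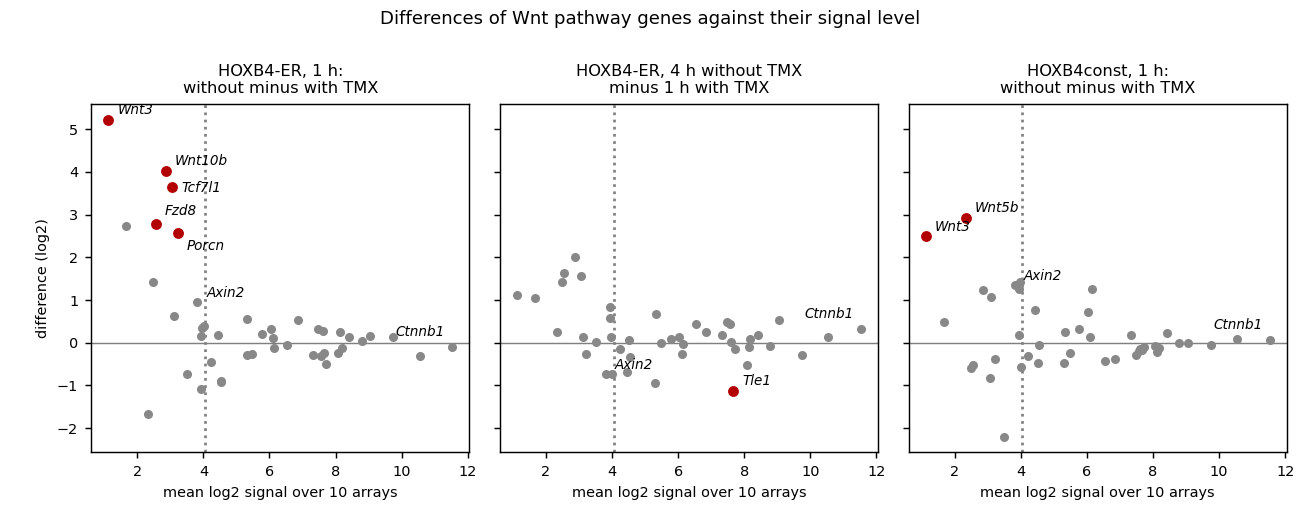
Each point is a Wnt pathway gene, with its mean log2 signal over 10 arrays (x axis) and its log2 difference (y axis) in 3 comparisons; red points have an unadjusted limma p under 0.05 and the dotted line is the median of all probe sets (4.05). The red points are Wnt3, Wnt10b, Tcf7l1, Fzd8 and Porcn in HOXB4-ER cells at 1 h, Tle1 at 4 h, and Wnt3 and Wnt5b in HOXB4const cells, and all of these except Tle1 lie left of the line.

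After 4 h without TMX, HOXB4-ER cells had 0 of 43 genes past the adjusted threshold against HOXB4-ER cells with TMX, as did 0% of all probe sets. Tle1, a Groucho corepressor of TCF factors, was the 1 gene at an unadjusted p under 0.05 and was lower without TMX (2.33% of the genes, beside 1.76% of all probe sets), while 0 were higher (1.59% of all probe sets). Tle1 had log2 signals of 7.08 and 7.13 after 4 h without TMX against 8.30 and 8.16 with TMX. The replicates lay close together and the groups apart, by -1.13 ± 0.40 (SE; limma adjusted p = 1.00). After 1 h without TMX the same probe set had 8.08 and 7.89, and in HOXB4const cells 7.39 and 7.44 without TMX against 7.77 and 7.39 with TMX, so that HOXB4const cells of both kinds lay between the 4 h and the 1 h HOXB4-ER signals. The second Tle1 probe set had 6.69 and 7.18 after 4 h without TMX against 7.11 and 7.05 with TMX, a difference of -0.14 ± 0.44 with overlapping arrays. The unadjusted p of Tle1 exceeded 0.05 when any 1 of the 4 arrays was left out, when each array was centred on its median and with the mean of its probe sets. With the replicate number as a block, Wnt10b was also at an unadjusted p under 0.05, as the 1 higher gene (1.84% of all probe sets).

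Wnt3 in these 4 h arrays had -0.86 and 0.09 without TMX, against the -1.97 and -1.05 with TMX given above. The groups did not overlap, and the difference was 1.12 ± 0.68 log2 units (SE; limma adjusted p = 1.00). Wnt10b had 4.70 and 1.45 without TMX, a difference of 2.01 ± 1.04 from the arrays with TMX. It was 3.63 without replicate 2 of the 4 h arrays and 0.39 without replicate 1. Fzd8 had 2.40 and 1.36, a difference of 1.63 ± 0.84 (SE; limma adjusted p = 1.00 for both). Ctnnb1 differed by 0.32 ± 0.45, Axin2 by -0.74 ± 1.23 with signals of 3.76 and 1.44 without TMX, and the brightest Cxxc4 probe set by 1.43 ± 1.43. Their limma adjusted p was 1.00 each. Of the 43 genes, 27 had a difference above 0 (48.3% of all probe sets), 10 had both arrays without TMX above both with TMX (14.8% of all probe sets) and 2 had them below (15.2%). The median log2 difference was 0.13 over the 43 genes, beside -0.02 over all probe sets.

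Between the HOXB4-ER cells at 4 h and at 1 h without TMX, 0 genes passed after adjustment (0% of all probe sets). At an unadjusted p under 0.05, Wnt3 and Porcn were lower at 4 h (4.65% of the genes, beside 4.01% of all probe sets) and 0 genes were higher (1.67% of all probe sets). This share is near the background. With the replicate number as a block 5 genes were lower at that p (Porcn, Tcf7l2, Tle1, Wnt10b and Wnt3), where 5.18% of all probe sets were. Leaving out any 1 array gave differences of -3.54 to -2.13 for Porcn and -4.71 to -3.49 for Wnt3. Porcn had 2.74 and 1.33 at 4 h against 4.53 and 5.19 at 1 h, a log2 difference of -2.83 ± 0.64 (SE; limma adjusted p = 0.490). Wnt3 differed by -4.10 ± 0.68 (SE; limma adjusted p = 0.348). Wnt10b and Tle1 came next, with differences of -2.02 ± 1.04 and -0.88 ± 0.40 (SE; limma adjusted p = 0.935 and 0.897). The Wnt10b difference was -0.39 without replicate 2 of the 4 h arrays and -3.64 without replicate 1. Ctnnb1 differed by 0.42 ± 0.45, Axin2 by -1.68 ± 1.23 and Cxxc4 by 0.00 ± 1.43 (SE; limma adjusted p = 0.967, 0.963 and 1.00). A difference above 0 was seen in 21 genes (41.7% of all probe sets), both 4 h arrays lay above both 1 h arrays in 11 (12.8%) and below in 12 (23.4%). The median difference was -0.12 over the 43 genes and -0.17 over all probe sets. The 1 h and 4 h comparisons with TMX share their arrays with TMX, and this one shares its 1 h arrays with the 1 h comparison.

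**Figure D3:**
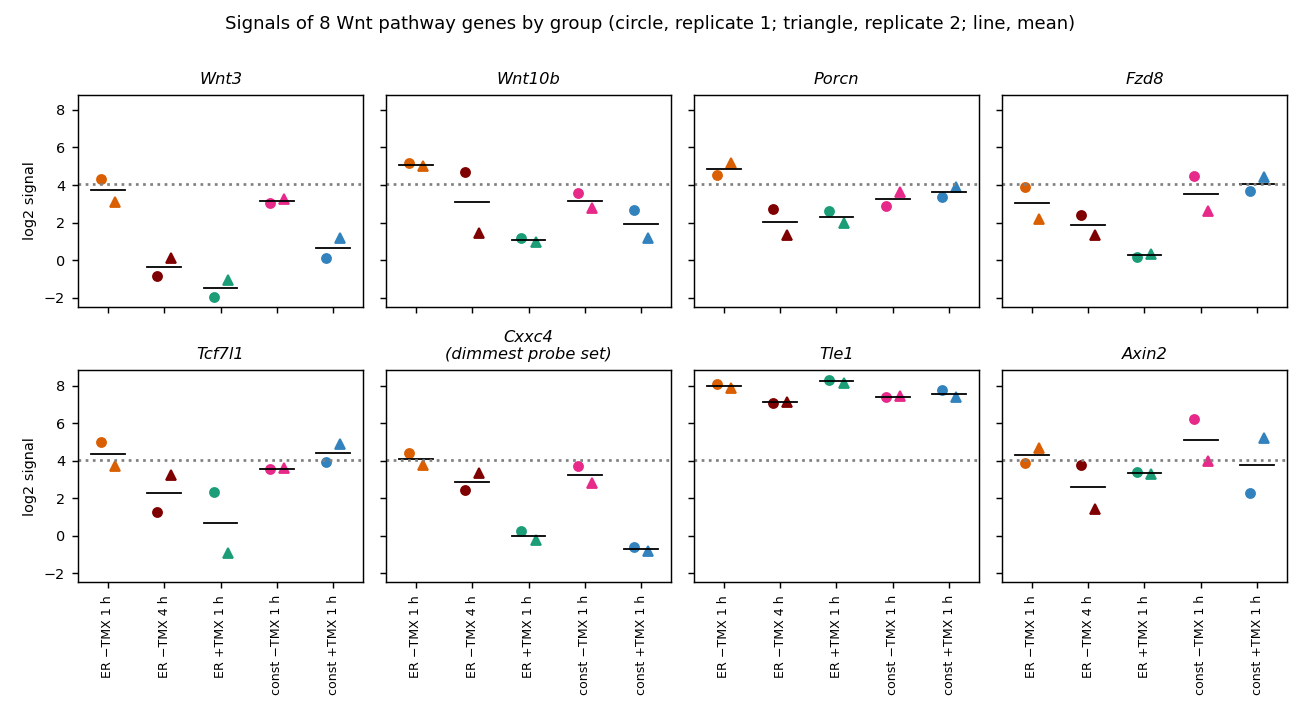
Log2 signals (y axis) of 8 Wnt pathway genes in the 5 groups (x axis), with circles for replicate 1, triangles for replicate 2, lines for group means and the dotted line for the median of all probe sets (4.05); Cxxc4 is shown by its dimmest probe set. Wnt3 and this Cxxc4 probe set are higher without than with TMX at 1 h in both constructs, Porcn and Fzd8 differ so in HOXB4-ER cells, and Tle1 is lowest in the 4 h HOXB4-ER arrays (7.08 and 7.13).

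HOXB4const cells, in which HOXB4 does not depend on TMX, had 0 of 43 genes past the adjusted threshold (0% of all probe sets). At an unadjusted p under 0.05, the ligands Wnt3 and Wnt5b were higher without TMX (4.65%, beside 3.3% of all probe sets), and 0 genes were lower (1.05% of all probe sets). Wnt3 had log2 signals of 3.04 and 3.24 without TMX against 0.09 and 1.19 with TMX. The groups did not overlap (log2 difference 2.50 ± 0.68, SE; limma adjusted p = 0.949), and the difference was 2.60 ± 0.87 without the array that stood apart. All 4 of these signals are under 4, so with signals under 4 set to 4 they do not differ. The 3 genes then at an unadjusted p under 0.05 were Dkk1, Fzd2 and Wnt5b, all higher (3.4% of all probe sets were). Wnt5b, a ligand like Wnt5a, had 5.59 and 4.35 without TMX against 2.47 and 1.60 with TMX. This difference of 2.93 ± 1.01 (SE; limma adjusted p = 1.00) was 2.31 ± 1.25 without the array that stood apart. The other Wnt5b probe set differed by 0.29 ± 1.12. Wnt3a had 5.09 and 0.75 without TMX against 4.76 and 5.48 with TMX, overlapping, and differed by -2.20. Without the array that stood apart it differed by -4.37 ± 1.17, which rests on the 1 array left without TMX (0.75).

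Fzd2 had 4.95 and 4.97 without TMX against 2.55 and 4.51 with TMX, a log2 difference of 1.42 ± 0.76. Dkk1 had 5.28 and 5.90 without TMX against 4.89 and 4.74 with TMX, a difference of 0.78 ± 0.49 (SE; limma adjusted p = 1.00 for both). Without the array that stood apart, the differences were 1.43 ± 0.98 for Fzd2 and 1.09 ± 0.57 for Dkk1. In both genes the arrays without TMX were above those with TMX. Axin2 had 6.22 and 3.98 without TMX against 2.27 and 5.23 with TMX, overlapping, and differed by 1.35 ± 1.23 (0.23 ± 1.43 without the array that stood apart). Ctnnb1 differed by 0.07 ± 0.45 and the brightest Cxxc4 probe set, at 5.73 and 1.43 without TMX against 2.998 and 5.35 with TMX, by -0.59 ± 1.43 (SE; limma adjusted p = 1.00 for these 3). Without that array, Ctnnb1 differed by 0.42 ± 0.49 and Cxxc4 by -2.74 ± 1.14. A difference above 0 was seen in 19 of the 43 genes (55.7% of all probe sets), and the arrays without TMX were all above those with TMX in 6 (15.8%) and below in 1 (9.17%). The median log2 difference of the 43 genes was -0.05, beside 0.09 over all probe sets. Without the array that stood apart, 23 genes had a difference above 0 (53.5%, beside 47.8% of all probe sets), and the 1 array left without TMX was above both with TMX in 13 genes (30.2%, beside 29.7%) and below both in 15 (34.9%, beside 35.5%). These shares differ little from those of all probe sets.

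The test of the difference between constructs, the 1 h effect in HOXB4-ER cells minus that in HOXB4const cells, passed 0 of 43 genes and 0% of all probe sets. At an unadjusted p under 0.05, Porcn (log2 difference of effects 2.94 ± 0.90), Wnt3 (2.72 ± 0.96), Fzd8 (3.30 ± 1.18) and Tcf7l1 (4.48 ± 1.63) were on the HOXB4-ER side (9.3%, beside 1.78% of all probe sets). Wnt5b (-4.61 ± 1.42) was on the HOXB4const side (2.33%, beside 1.99%). Their limma adjusted p was 1.00 each. All of these genes were dim. They make 26.7% of the 15 dim members on the HOXB4-ER side and 6.67% on the HOXB4const side, and 0 of the 28 bright members reached this p. The share of all dim probe sets is not given for this comparison, so a part of signal level in these shares was not tested. The difference of effects was above 0 in 19 genes (50.9% of all probe sets), with a median of -0.04 over the 43 genes and 0.02 over all probe sets. Porcn in HOXB4const cells had 2.86 and 3.64 without TMX against 3.36 and 3.92 with TMX, Fzd8 had 4.47 and 2.60 against 3.67 and 4.43, and Tcf7l1 had 3.56 and 3.60 against 3.93 and 4.88. In HOXB4const cells, then, the arrays of Porcn and Fzd8 overlapped and those of Tcf7l1 were lower without TMX. Wnt5b in HOXB4-ER cells had 0.02 and 0.68 after 1 h without TMX against 3.50 and 0.55 with TMX. Ctnnb1, Axin2 and Cxxc4 had differences of effects of -0.17 ± 0.64, -0.40 ± 1.74 and 2.02 ± 2.02 (SE; limma adjusted p = 1.00 each). Without the array that stood apart, Cxxc4, Fzd8 and Porcn had differences of effects of 4.17 ± 1.47, 4.24 ± 1.12 and 2.55 ± 0.99. Wnt3 then had 2.62 ± 1.12, Tcf7l1 4.46 ± 1.97, Wnt5b -3.99 ± 1.62, Ctnnb1 -0.52 ± 0.63 and Axin2 0.71 ± 1.85 (SE), and 23 of the 43 genes were above 0 (56.8% of all probe sets). Leaving out any 1 array gave differences of effects of 2.55 to 3.34 for Porcn and 2.12 to 3.33 for Wnt3. They were 2.37 to 4.24 for Fzd8 and -6.08 to -3.13 for Wnt5b, and no range is given for Tcf7l1. These ranges are sizes of effect and do not show that the unadjusted p held. With quantile normalization 3 genes were on the HOXB4-ER side at that p, without Wnt3 (2.31% of all probe sets).

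Some probe sets were higher without TMX in both constructs at 1 h. Of the 110 probe sets of the 43 genes, 5 had all 4 arrays without TMX above all 4 arrays with TMX (4.55%, beside 2.09% of all probe sets), and 1 had them all below (0.909%, beside 0.466%). Without the array that stood apart, 6 had the 3 arrays without TMX above the 4 with TMX (5.45%, beside 2.96%) and 2 below (1.82%, beside 1.65%). The 5, all dim, were the Wnt3 and Wnt10b probe sets, the dimmest Cxxc4 probe set and a pair of Wnt5a probe sets. The Wnt5a and Cxxc4 ones are named after their values were seen. For this order, the share of dim probe sets alone is not given. The 1 below was a Gsk3b probe set other than its brightest. The dimmest Cxxc4 probe set had 4.44 and 3.78 without TMX against 0.25 and -0.24 with TMX in HOXB4-ER cells, and 3.70 and 2.82 against -0.61 and -0.79 in HOXB4const cells. For HOXB4-ER its difference was 4.10 ± 0.55 log2 units, and for HOXB4const 3.96 ± 0.55 (SE; limma adjusted p = 0.457 and 0.855), or 3.52 ± 0.61 for HOXB4const without the array that stood apart. After 4 h without TMX it had 2.46 and 3.32 in HOXB4-ER cells, still above the arrays with TMX. The difference between the constructs was 0.14 ± 0.77 (SE; limma adjusted p = 1.00), or 0.58 ± 0.79 without that array. The brighter Wnt5a probe set of the pair had 3.82 and 3.72 against 2.56 and 0.16 with TMX in HOXB4-ER cells, and HOXB4const cells had 4.75 and 3.51 without TMX against 1.31 and 0.90 with TMX. The dimmer one of the pair held the order only just, at 1.435 against 1.419 in HOXB4const replicate 2 without and with TMX. Wnt10b also held it narrowly, with 3.58 and 2.76 in HOXB4const cells without TMX against 2.69 and 1.18 with TMX. The brightest Wnt5a probe set, given above, did not share this order.

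With TMX present in both, HOXB4-ER cells had 0 of 43 genes past the adjusted threshold against HOXB4const cells (0% of all probe sets). Without adjustment (p under 0.05), 4 genes were lower in HOXB4-ER cells (9.3%, beside 3.59% of all probe sets) and 0 higher (0.786% of all probe sets). All 4 were dim (26.7% of the 15 dim members), and the share of all dim probe sets at this p is not given. Fzd8, at 0.18 and 0.32 in HOXB4-ER cells against 3.67 and 4.43 in HOXB4const cells, had a log2 difference of -3.80 ± 0.84 (SE; limma adjusted p = 0.762). Tcf7l1 differed by -3.70 ± 1.15, Wnt3 by -2.15 ± 0.68 and the brightest Cxxc4 probe set by -3.57 ± 1.43 (SE; limma adjusted p = 0.960, 0.971 and 1.00). For the brightest probe sets of these 4 genes the arrays of the constructs did not overlap. The dimmest Cxxc4 probe set was instead higher in HOXB4-ER cells (0.25 and -0.24 against -0.61 and -0.79), and the remaining one overlapped. The other Fzd8 probe set overlapped (-0.27 and 1.13 against 1.06 and 1.35). The other Tcf7l1 probe set was lower too (1.39 and 1.45 against 2.61 and 1.64). The neutrophil markers given above averaged 6.81 in these HOXB4-ER cells against 5.05 in these HOXB4const cells. That order held on replicate 1 arrays (9.02 against 4.96) and was reversed on replicate 2 arrays (4.60 against 5.15). The mast cell markers averaged 9.36 against 9.68, with Ms4a2 and Cpa3 lower in HOXB4-ER cells and Mcpt8 higher within each replicate number. The part of such cells in the differences was not tested. Leaving out any 1 array gave differences between constructs of -4.17 to -3.42 for Fzd8 and -5.33 to -2.07 for Tcf7l1. They were -2.70 to -1.60 for Wnt3 and -4.74 to -2.39 for Cxxc4. Such ranges are sizes of effect and do not show that the unadjusted p held. With the replicate number as a block 3 genes were lower at the unadjusted p (without Cxxc4), beside 4.13% of all probe sets. Centring on the array median, quantile normalization and a variance trend each gave 3 (without Wnt3). The shares of all probe sets were then 2.3%, 2.09% and 2.36%. With signals under 4 set to 4, 0 genes were lower at that p (2.19% of all probe sets). A difference above 0 was seen in 13 of the 43 genes (39% of all probe sets), and HOXB4-ER arrays lay above HOXB4const arrays in 4 (9.28%) and below in 10 (22.5%). The HOXB4-ER arrays with TMX are also the arrays that the 1 h and 4 h differences are set against, so the low values of Fzd8, Tcf7l1 and Wnt3 there enter all of these comparisons. Dim probe sets as a whole had a median difference of -0.55 between the constructs, and the 15 dim members -0.87. Ctnnb1 differed by -0.03 ± 0.45 and Axin2 by -0.41 ± 1.23 (SE; limma adjusted p = 1.00 for both).

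The replicate number, balanced over the groups, was compared as a technical check. The fit passed 0 of 43 genes and 0% of all probe sets. At an unadjusted p under 0.05, Lrp5 was higher on replicate 2 arrays (2.33%, beside 3.13% of all probe sets), and Tcf7l2 and Fzd4 were lower (4.65%, beside 10.5% of all probe sets). Fzd4 had 2.80 to 4.20, with a median of 3.84, on the replicate 2 arrays and 4.20 to 5.22, with a median of 4.80, on the replicate 1 arrays. It was the 1 gene of the 43 that was lower without overlap (3.76% of all probe sets), though only just (4.1977 against 4.1984). In the other direction 0 genes were without overlap (2.74%). Fzd4 differed by -1.10 ± 0.41 log2 units (SE; limma adjusted p = 0.339). A difference above 0 was seen in 17 genes (41.3% of all probe sets). Lrp5 differed by 1.11 ± 0.38, Tcf7l2 by -1.10 ± 0.35 and Csnk1d by 0.54 ± 0.22 (SE; limma adjusted p = 0.310, 0.291 and 0.372). Wnt3 differed by 0.39 ± 0.41, Axin2 by -0.19 ± 0.85, Cxxc4 by -0.68 ± 0.95 and Ctnnb1 by 0.37 ± 0.22 (SE; limma adjusted p = 0.718, 0.944, 0.794 and 0.514).

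The 3 probe sets of beta-catenin did not behave alike between the replicate numbers. The brightest had 11.43 to 11.95, with a median of 11.67, on replicate 2 arrays and 11.21 to 11.63, with a median of 11.31, on replicate 1 arrays. The second had 7.58 to 9.02, with a median of 8.56, on replicate 2 arrays and 9.39 to 9.55, with a median of 9.53, on replicate 1 arrays. It was lower on every replicate 2 array, by -1.04 ± 0.28 log2 units (SE; limma adjusted p = 0.243). The dimmest had 1.71 to 6.77, with a median of 4.27, on replicate 2 arrays and 6.71 to 8.91, with a median of 8.13, on replicate 1 arrays, a difference of -3.41 ± 0.68 (SE; limma adjusted p = 0.177). The Gapdh control probe sets for the 3′ and 5′ ends of the message, whose difference is a measure of RNA or labelling quality, also differed: 3′ minus 5′ was 2.72 ± 1.08 log2 units on replicate 2 arrays and 1.10 ± 0.26 on replicate 1 arrays (SD, n = 5 each). The 3 arrays with the largest Gapdh difference (2.93, 3.47 and 3.98) had the 3 lowest signals of the dimmest Ctnnb1 probe set (4.27, 1.71 and 3.94). The part of RNA quality, or of the monocyte markers that also separate the replicate numbers, in these signals was not tested.

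**Figure D4:**
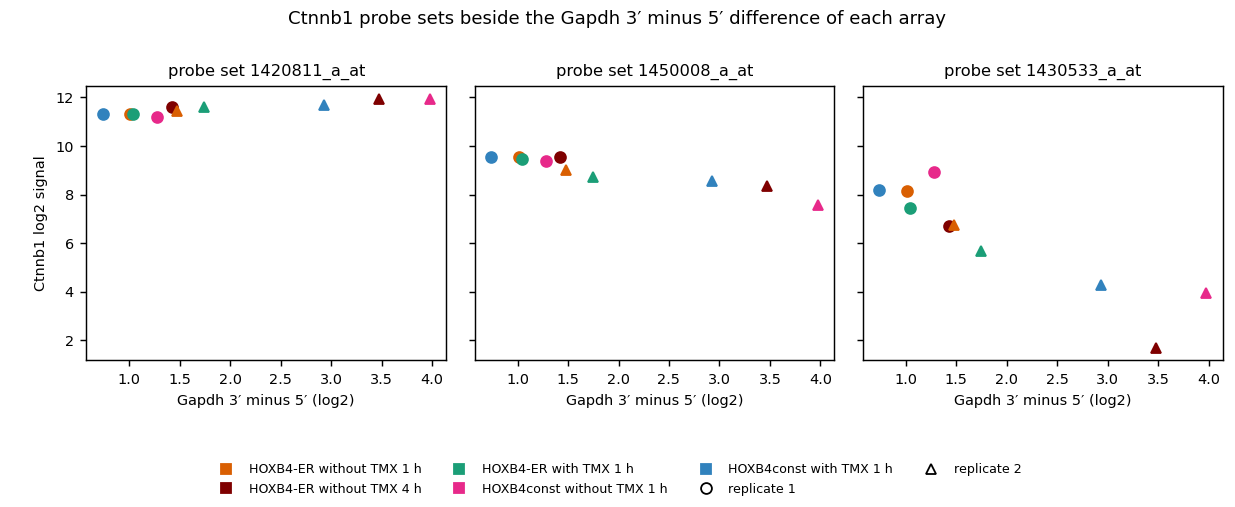
Log2 signal of each of the 3 Ctnnb1 probe sets (y axis) against the Gapdh 3′ minus 5′ difference of the same array (x axis, log2), with circles for replicate 1, triangles for replicate 2 and colours for groups. The brightest probe set stays between 11.21 and 11.95, while the dimmest lies at or below 6.77 on all 5 replicate 2 arrays and reaches 1.71.

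Members with several probe sets often disagreed with themselves. Of 33 such genes, all probe sets pointed in 1 direction in 13 genes in HOXB4-ER cells at 1 h, in 10 at 4 h, in 13 in HOXB4const cells, in 9 for the difference between constructs, in 12 between 4 h and 1 h, in 13 between the constructs with TMX and in 10 between replicate numbers. Over all bright probe sets, the median half-width of a 95% confidence interval was 1.33 log2 units for a difference between groups and 1.88 for the difference between constructs.

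Outside the 43 genes, a list of 63 other Wnt genes (further ligands, receptors, R-spondins, antagonists and cofactors) had 62 measured, 32 of them bright. They are described with the same fit, and 0 of 62 passed after adjustment in any of the 7 comparisons. In HOXB4-ER cells at 1 h, 5 were higher (8.06%, beside 3.42% of all probe sets) and 1 lower (1.61%, beside 1.34%) without TMX at an unadjusted p under 0.05. At 4 h 0 were higher (1.59% of all probe sets) and 4 lower (6.45%, beside 1.76%). In HOXB4const cells 6 were higher (9.68%, beside 3.3%) and 0 lower (1.05% of all probe sets), and 47 of the 62 had a difference above 0 (75.8%, beside 55.7%). For the difference between constructs 2 were on the HOXB4-ER side (3.23%, beside 1.78%) and 3 on the HOXB4const side (4.84%, beside 1.99%). Between 4 h and 1 h 0 were higher (1.67% of all probe sets) and 6 lower (9.68%, beside 4.01%). With TMX in both constructs 1 was higher in HOXB4-ER (1.61%, beside 0.786%) and 3 lower (4.84%, beside 3.59%), and between replicate numbers 1 was higher (1.61%, beside 3.13%) and 6 lower (9.68%, beside 10.5%). The 4 that were lower at 4 h were the ligands Wnt11 and Wnt2b, the R-spondin receptor Lgr5 and Tle4. Tle4, a Groucho corepressor like Tle1, had log2 signals of 7.03 and 7.25 after 4 h without TMX against 8.39 and 8.02 with TMX, a difference of -1.06 ± 0.44 (SE; limma adjusted p = 1.00). At 1 h without TMX it had 7.51 and 7.34, already below the arrays with TMX, and in HOXB4const cells 7.28 and 7.99 without TMX against 7.21 and 7.27 with TMX. Tle3, another Groucho gene, differed by -0.52 ± 0.45 at 4 h with overlapping arrays (SE; limma adjusted p = 1.00). Of 12 known target genes of the pathway, 11 were measured, 4 of them also members, and 0 passed in any comparison. Without adjustment (p under 0.05) 1 target, Lgr5, was lower at 4 h than with TMX (9.09%, beside 1.76% of all probe sets) and than at 1 h (9.09%, beside 4.01%), and Ccnd1 was lower on replicate 2 arrays (9.09%, beside 10.5%). With 11 targets, 1 gene gives each of these shares. Their median log2 difference was 0.08 in HOXB4-ER cells at 1 h, -0.12 at 4 h and -0.05 in HOXB4const cells.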

How the data were processed

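Amplified RNA was measured on Affymetrix mouse arrays, per the labels' protocols. The deposited table holds log2 signals for 45101 probe sets on 10 arrays, and GCOS and RMA are both named, without a role, in the submitters' processing notes. The mean of the linear signals after trimming 2% at each end was 100.0 on each of the arrays, so the values were not normalized again. Detection calls were not used here.

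After 64 controls were left out, a linear model with a mean per group (5 groups, 10 arrays) was fitted to 45037 probe sets in limma 3.58.1 under R 4.3.3 (5 residual and 2.21 prior degrees of freedom), with two-sided tests and Benjamini-Hochberg adjustment over all probe sets. The threshold was an adjusted p under 0.05, and the fit was tested on simulated data. Differences are limma coefficients with moderated SE. Errors of the Gapdh values are SDs. The replicate number was compared as a term of the same fit with the groups kept (4 residual and 1.82 prior degrees of freedom).

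The members, the other gene lists and the rules were chosen with earlier results of these data known. Differences are given for the 4 genes of smallest p in each comparison and, in every comparison, for Ctnnb1, Axin2, Wnt3 and Cxxc4. Signals on every array are given for the genes the results turn on and for the brightest gene of each role. Nothing in the labels says that replicates came from separate animals, so p-values measure the spread between these samples, which may be technical. Deviations of same-numbered arrays from their group means correlated above 0.1 in 10 of 10 pairs of groups (0.210 to 0.527 over 22519 bright probe sets), so the numbers were taken to pair the arrays. The main fit of the comparisons between groups leaves this pairing out of its SE and p, and a replicate block was run as an alternative. The alternatives were this replicate block, median centring, quantile normalization, a floor at a log2 signal of 4, bright probe sets only, a variance trend, the compared arrays only, other probe sets of a gene and leaving out each array. The number of arrays limits the precision.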

Additional observations from a re-analysis of the deposited data

How the results depend on the processing

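With 2 arrays a group, the median half-width of an unadjusted 95% interval was 1.33 log2 units over bright probe sets. The number of the 43 genes past the adjusted threshold was 0 in the 6 comparisons between groups under every alternative run, and also 0 to 0 in all 7 when any 1 array was left out. The replicate block kept 0 genes past the threshold in each of these 6, with a median log2 difference of 0.15 at 1 h in HOXB4-ER cells, and it changed no call. For replicate number, a variance trend passed 2 genes, Lrp5 and Csnk1d, beside 6.06% of all probe sets. At an unadjusted p under 0.05, the 5 genes higher at 1 h in HOXB4-ER cells became 2 with signals under 4 set to 4 (2.01% of all probe sets) and 9 with the mean of probe sets (3.46% of 18193 genes). Sfrp1 and Wnt5a are among the 9, although their brightest probe sets were lower. Under the floor the 2 lower genes of 4 h minus 1 h became 4 (Ctbp1, Porcn, Tle1 and Wnt10b, not Wnt3), beside 2.64% of all probe sets. The 4 on the HOXB4-ER side of the difference between constructs became 2 there (2.17% of all probe sets). A variance trend left 1 of them (0.955%). With the floor, the 4 lower between constructs with TMX became 0 (2.19% of all probe sets), with Tle1 higher (0.555%). For replicate number, 1 higher and 2 lower became 5 and 6 with the floor (6.47% and 9.1% of all probe sets). With a variance trend they became 6 and 3 (6.95% and 11.3%). Centring gave 3 and 0 (6.34% and 5.28%), as did quantile normalization (5.54% and 6.82%). The causes of the changes were not tested. With each array centred on its median, the median difference of all probe sets was -0.27 at 1 h in HOXB4-ER cells, -0.22 in HOXB4const cells, 0.25 for 4 h minus 1 h, 0.25 between constructs and 0.17 for replicate number. The median over the 43 genes then was -0.24 at 1 h in HOXB4-ER cells, -0.36 in HOXB4const cells, -0.12 for the difference between constructs, 0.29 for 4 h minus 1 h, 0.25 for HOXB4-ER minus HOXB4const and 0.23 for replicate number. Under quantile normalization it was 0.057, -0.11 (difference between constructs), 0.016, -0.074 and 0.10 for the same comparisons without HOXB4const. With signals under 4 set to 4 it was 0.053 at 1 h and 0.00 at 4 h in HOXB4-ER cells. Over bright genes only it was -0.075 at 1 h, 0.046 at 4 h, -0.10 for the difference between constructs, 0.13 for 4 h minus 1 h and -0.035 between constructs with TMX. With the mean of each gene's probe sets it was 0.34 at 1 h, -0.025 at 4 h, 0.089 in HOXB4const cells, 0.24 for the difference between constructs, -0.61 for 4 h minus 1 h, -0.36 between constructs with TMX and -0.20 for replicate number. Without any 1 array it ranged over -0.0001 to 0.11 at 1 h, -0.032 to 0.28 at 4 h, -0.056 to 0.029 in HOXB4const cells, -0.11 to 0.16 for the difference between constructs, -0.11 to 0.053 for 4 h minus 1 h, -0.28 to -0.085 between constructs with TMX and -0.14 to 0.0071 for replicate number.

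Differences of single genes that changed sign, none of them past the threshold, were these. With the mean of its probe sets Ctnnb1 gave 0.32 at 1 h, -0.72 at 4 h, -0.098 in HOXB4const cells, 0.42 for the difference between constructs, -1.05 for 4 h minus 1 h, 0.12 between constructs with TMX and -1.36 for replicate number, and with its next brightest probe set 0.18, -0.14, -0.56, 0.73, -0.32, 0.061 and -1.04. Centring gave Ctnnb1 -0.24 in HOXB4const cells and 0.39 between constructs, and quantile normalization -0.035 in HOXB4const cells. The next brightest probe set of Cxxc4 gave -2.80 at 1 h, -1.27 at 4 h and -2.02 for the difference between constructs, the floor gave 0.19 in HOXB4const cells and -0.19 for that difference, and the mean of probe sets 0.86 in HOXB4const cells. Fzd8 gave -0.25 at 4 h with its other probe set and -0.021 for the difference between constructs with the floor, where Wnt5b gave 1.34 with its other probe set. Dkk1 in HOXB4const cells gave -0.064 with the mean and -0.90 with the next probe set. Axin2 gave 0.0096 with centring and 0.050 with its other probe set between constructs, and 0.13 with centring and 0.12 with quantile normalization for replicate number. There, Wnt3 gave -0.064 with the floor, Csnk1d -0.11 with the mean and -0.37 with the next probe set, and Fzd4 0.26 with its next probe set. Without any 1 array, Ctnnb1 ranged over -0.26 to 0.059 at 1 h, -0.29 to 0.42 in HOXB4const cells, -0.52 to 0.19 for the difference between constructs and -0.21 to 0.16 between constructs with TMX. Axin2 ranged over -1.90 to 0.42 at 4 h, -0.13 to 2.83 in HOXB4const cells, -1.89 to 1.08 for the difference between constructs, -1.89 to 1.07 between constructs with TMX and -0.98 to 0.34 for replicate number. Cxxc4 ranged over -2.74 to 1.56 in HOXB4const cells, -0.13 to 4.17 for the difference between constructs, -0.78 to 0.79 for 4 h minus 1 h and -1.44 to 0.22 for replicate number.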
